A study of Rattus norvegicus with 2 samples.

Results

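The genes described here are 51 components of the exocytosis machinery: the SNARE proteins and their regulators, the synaptotagmins, the Rab GTPases of secretory vesicles and the exocyst. They were chosen by gene name, as a list, with earlier results of these data known. All 51 were read on the arrays, out of 15565 named genes in all. A gene with several targets, the array's probe sets, was given the value of its brightest target.

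The study compared AR42J cells, a rat line established from a tumour of exocrine pancreas, after 200 µM taurolithocholic acid 3-sulfate (TLC-S) for 20 min with AR42J cells that had no treatment. TLC-S, a bile acid that carries a sulfate group, serves as a model of the injury that bile does to acinar cells. Both groups were grown in the same serum-containing medium, and total RNA of each was hybridised to 1 NimbleGen array, so that the design holds 1 TLC-S array and 1 control array. The line is a tumour cell line in culture and stands in for acinar tissue only as such a model.

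With 1 array per group there was no replicate check, no test between groups and no p-value. Each ratio below compares these 2 arrays, and the words higher and lower refer to the TLC-S array relative to the control array. Values are intensities in arbitrary units, on a linear scale. Random-sequence probes gave 40.5 on the TLC-S array and 44.7 on the control array. The median target gave 91.3 on the TLC-S array and 94.5 on the control array. For a gene that reached 100 on 1 array alone, the fold is a lower bound, with the dimmer array set to 100. No fold is given for a gene under 100 on both arrays, although the measured log2 ratio of some such genes is printed or drawn.

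Regulated exocytosis ends with the fusion of a vesicle with the plasma membrane. SNAREs drive it: a VAMP on the vesicle zips together with a syntaxin and a SNAP protein on the target membrane, and the ATPase NSF with its adaptors later takes the complex apart. Rab GTPases mark and transport the vesicle, the exocyst tethers it, SM and Munc13 proteins prepare the SNAREs, complexins clamp them, and synaptotagmins sense calcium. In pancreatic acinar cells this machinery releases the digestive enzymes stored in zymogen granules, and overstimulation is known to disturb it.

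The exocytosis genes as a group lay close to the rest of the array, with a few members apart in each direction. Of the 51 genes, 36 reached 100 on both arrays, 5 on 1 array and 10 on neither. The median log2 ratio of TLC-S over control was 0.20 over all 51, with 35 above 0, against 0.15 over all named genes, of which 59.3% were above 0. Over these 36 genes the median was 0.25, with 28 above 0 (77.8%). The 10165 named genes at this level had a median of 0.25 too, with 66.3% above 0.

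At least 2-fold higher in TLC-S among these 36 were Snap29, Nsf, Rab3d, Exoc1 and Exoc5, which makes 5 genes (13.9%), beside 10.0% of all named genes at 100 or more on both arrays. At least 2-fold lower were Cplx1 and Vamp4, 2 genes (5.56%), beside 4.38% of the named genes at this level. By measured ratio over all 51, 7 were at least 2-fold higher (13.7%, beside 8.67% of all named genes) and 2 at least 2-fold lower (3.92%, beside 5.38%). The 2 further higher genes, Cplx2 and Syt11, were under 100 on the control array, and their bounds did not reach 2-fold. These shares lay near those of all genes, so the counts do not set the exocytosis genes apart.

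The ratio varied with signal over the whole array. To centre it at each signal, a smooth loess curve of log2 ratio on mean log2 signal was subtracted, which moved the median of all named genes to 0.01. The median of the 51 exocytosis genes was then 0.0015, with 26 above 0, and 11 genes changed sign. Of the 36 genes that reached 100 on both arrays, 2 were then at least 2-fold higher (Snap29 and Exoc1, beside 4.58% of named genes) and 3 at least 2-fold lower (Cplx1, Vamp4 and Stx1a, beside 6.92%). Over all 51, 4 were at least 2-fold higher (beside 5.30% of all named genes) and the same 3 at least 2-fold lower (beside 6.71%).

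**Figure D1:**
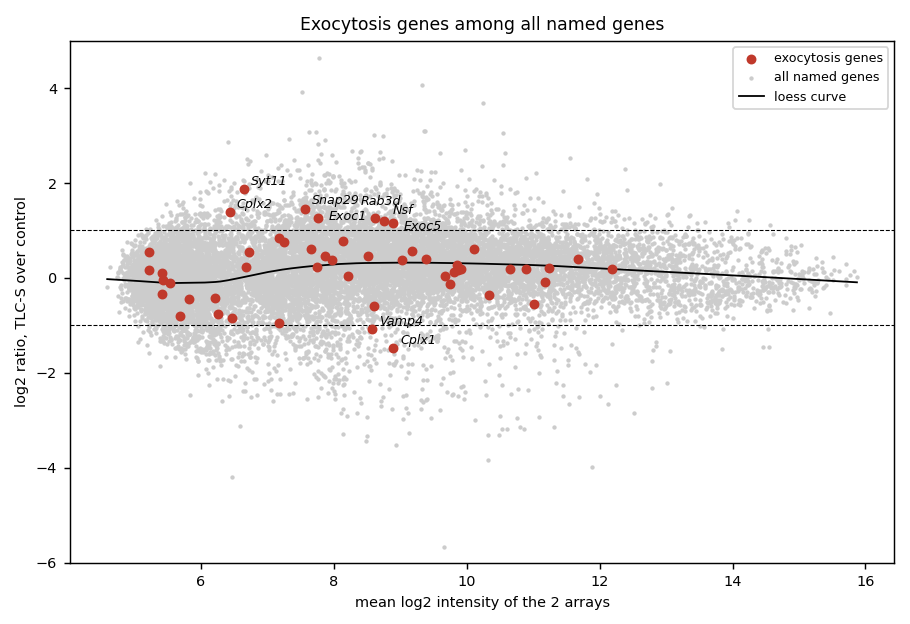
Log2 ratio of TLC-S over control (vertical axis) against the mean log2 intensity of the 2 arrays (horizontal axis) for all named genes in grey and the 51 exocytosis genes in red. The black line is the loess curve, the dashed lines mark 2-fold, and the 9 labelled genes are those past 2-fold by measured ratio, 7 above and 2 below.

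The array's own spread gives a scale for single genes. Among 588 genes read by several targets at 100 or more on both arrays, the SD of log2 ratios between targets of a gene was 0.42. This SD comes from targets on the same arrays, so it holds no variation between cultures, RNA preparations or repeated arrays. Of the 36 exocytosis genes, 18 lay within this distance of 0, 13 lay above it and 5 below, and 48.2% of all named genes at this level lay within it. The SD of log2 ratios over genes of a mean signal of 100 to 300 was 0.74, and it was 0.55 at 3000 or more. All 7 of the genes past 2-fold had a mean signal under 1000, and the 9 members above that ran from -0.55 to 0.62.

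The markers of the labelled cell type were checked by level. Of 22 measured acinar markers other than the trypsinogens, only the transcription factor Bhlha15 reached 100 on both arrays (1056 in TLC-S and 1227 in control), and 19 were under 100 on both, amylase (Amy2a3), Cpa1, Ctrc and Pnlip among them. Their summed intensity, much of it from Bhlha15, was 2251 in TLC-S and 2416 in control. The trypsinogens Prss1, Prss2 and Prss3 were far above background and lower in TLC-S. They had 603, 856 and 2183 in TLC-S against 5337, 7536 and 15742 in control. With them, the 25 measured acinar markers summed to 5893 in TLC-S and 31031 in control. All 19 measured leukocyte markers reached 100 on both arrays, with sums of 36436 in TLC-S and 37757 in control, among them Ptprc (993 in TLC-S and 1175 in control). Of 17 endocrine and neuroendocrine markers, 3 reached 100 on both arrays, with sums of 1339 in TLC-S and 1162 in control. Their median log2 ratio was 0, and Uchl1 had 324 in TLC-S and 108 in control. Of 6 epithelial markers 2 did so, Cdh1 and Ocln. The 6 summed to 7331 in TLC-S and 5834 in control, mostly from Cdh1 (6755 in TLC-S and 5018 in control), while their median log2 ratio was -0.52. Of 6 duct markers 1 reached 100 on both arrays, with sums of 429 in TLC-S and 775 in control. Of 9 stellate cell and fibroblast markers, 0 did. The marker levels thus go against an acinar secretory identity of these 2 RNA samples, which are called here by their labels, and the part of any such cells in the values below was not tested. In bulk RNA, fewer cells of a type and less RNA per cell cannot be told apart.

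**Figure D2:**
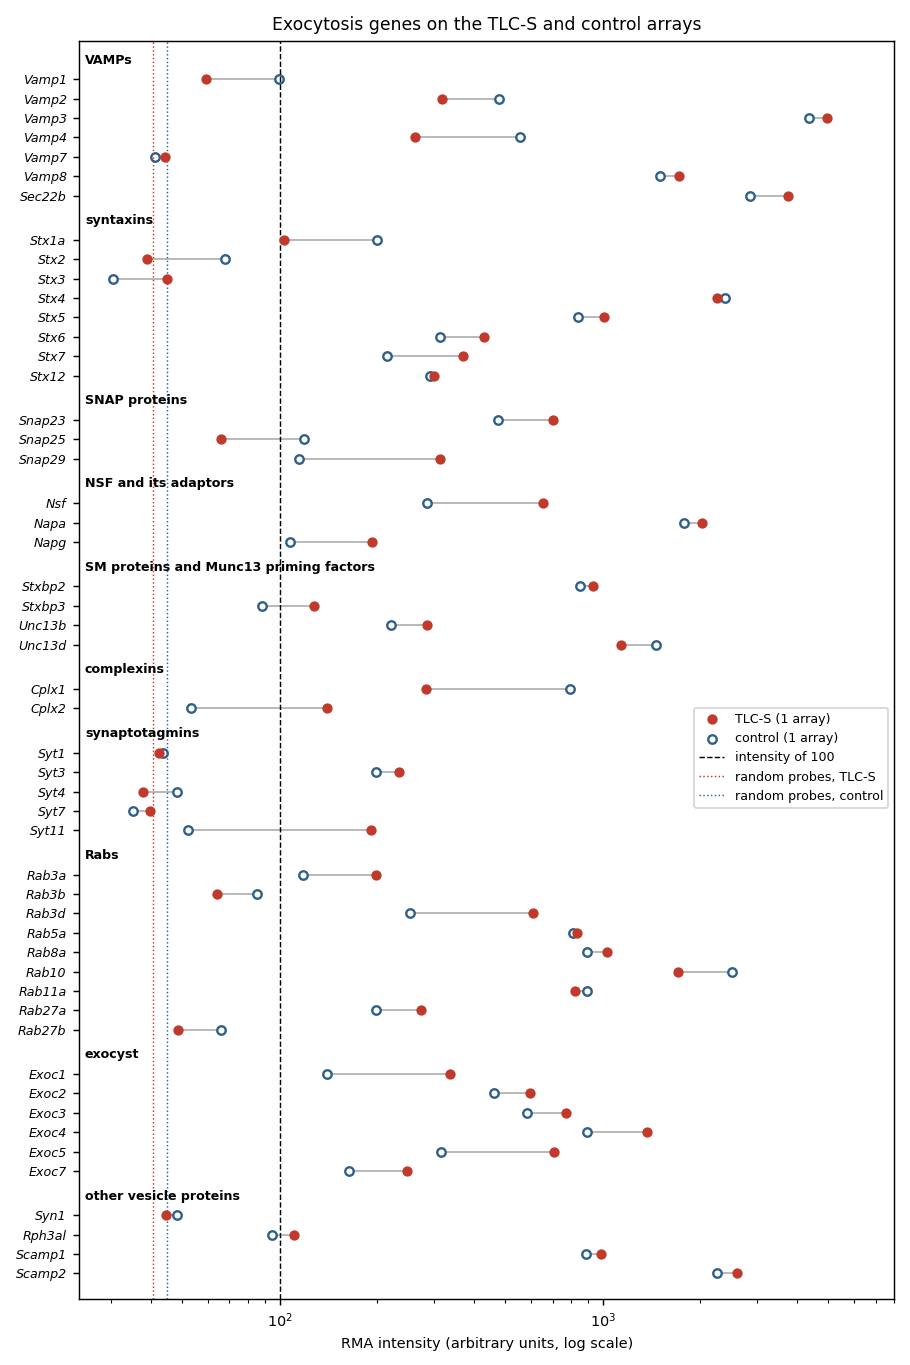
RMA intensity (log axis, arbitrary units) of each of the 51 exocytosis genes on the TLC-S array (filled red) and the control array (open blue), grouped by role. The dashed line marks 100 and the dotted lines the random probes. The 10 genes under 100 on both arrays run from 37.9 to 64.0 in TLC-S and from 30.6 to 99.8 in control.

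The VAMPs, the vesicle SNAREs, went both ways. Vamp2, the VAMP of synaptic vesicles that also sits on zymogen granules, had 319 in TLC-S and 477 in control, a log2 ratio of -0.58. Vamp4, a SNARE of the trans-Golgi network, had 263 in TLC-S and 555 in control and was the lowest of the class, 2.11-fold lower. Its target comes from a predicted RefSeq record. Vamp8, the main zymogen granule VAMP in mouse acinar cells, had 1718 in TLC-S and 1508 in control, a log2 ratio of 0.19 that turned to -0.10 after loess subtraction. Vamp3, of recycling endosomes, gave 4954 in TLC-S and 4346 in control, a log2 ratio of 0.19 that was 0.0015 after loess. Sec22b, which acts between the endoplasmic reticulum and the Golgi, had 3760 in TLC-S and 2862 in control, 1.31-fold higher.

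The other 2 VAMPs were under 100 on both arrays. Vamp1, a neuronal isoform, had 59.3 in TLC-S and 99.8 in control, just under the limit in control. Vamp7, of late endosomes and lysosomes, had 44.1 in TLC-S and 41.3 in control, at the level of random probes. The median log2 ratio of the class was 0.09 and changed sign to -0.10 after loess subtraction.

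Among syntaxins, the largest difference was that of Stx1a, the neuronal and endocrine plasma membrane syntaxin, with 104 in TLC-S and 200.5 in control, 1.94-fold lower. Its TLC-S value lay only just above 100. Stx4, the basolateral plasma membrane syntaxin of acinar cells, differed little, with 2254 in TLC-S and 2393 in control (log2 ratio -0.09, and -0.35 after loess). Stx2 and Stx3, which in acinar cells sit on the apical membrane and on zymogen granules, were under 100 on both arrays. Stx2 had 39.0 in TLC-S and 67.9 in control, and Stx3 had 45.0 in TLC-S and 30.6 in control. Of the syntaxins named for acinar membranes, Stx4 alone thus reached 100.

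The syntaxins of internal membranes were higher or near 0. Stx7, of late endosomes, had 370 in TLC-S and 215 in control, 1.72-fold higher. Stx6, of the trans-Golgi network, had 428 in TLC-S and 313 in control, 1.37-fold higher. Both kept their sign after loess subtraction, at 0.48 and 0.14 on the log2 scale. Stx5, of the Golgi, gave 1013 in TLC-S and 841 in control, and Stx12, of recycling endosomes, 301 in TLC-S and 293 in control. Their log2 ratios of 0.27 and 0.04 turned to -0.04 and -0.26 after loess, as the median of all 8 syntaxins turned to -0.15, against 0.15 before.

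The SNAP proteins, which add the remaining SNARE helices, differed by isoform. Snap29, a widely expressed member of internal membranes that also serves the fusion of autophagosomes, had 313 in TLC-S and 115 in control, 2.72-fold higher. It was the highest of the 36 genes that reached 100 on both arrays, and its log2 ratio was 1.21 after loess. Snap23, the form used in acinar and other non-neuronal cells, had 701 in TLC-S and 476 in control, 1.47-fold higher. Snap25, the neuronal and endocrine form, had 66.1 in TLC-S and 119 in control, at least 1.19-fold lower.

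All 3 genes of SNARE disassembly had a higher value in TLC-S, although Napa lay within the SD between targets of a gene and changed sign after loess subtraction. Of all named genes at 100 or more on both arrays, 66.3% were above 0 as measured and 49.9% after loess. Nsf, the ATPase, had 655 in TLC-S and 285 in control, 2.30-fold higher (0.88 on the log2 scale after loess). Its adaptor Napg had 194 in TLC-S and 107 in control, 1.80-fold higher, at a target of a predicted record. The adaptor Napa, alpha-SNAP, gave 2027 in TLC-S and 1783 in control, and its log2 ratio of 0.18 was -0.09 after loess.

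SM proteins hold syntaxins, and Munc13 proteins prime vesicles for fusion. Stxbp2, the SM protein of epithelial and blood cell secretion, had 935 in TLC-S and 854 in control, a log2 ratio of 0.13 that was -0.18 after loess. Stxbp3, the partner of Stx4, had 128 in TLC-S and 88.1 in control, at least 1.28-fold higher. Unc13b had 285 in TLC-S and 221 in control, 1.29-fold higher. Unc13d, which primes granules in cytotoxic lymphocytes and other blood cells, had 1139 in TLC-S and 1459 in control, 1.28-fold lower. The 3 of these genes that reached 100 on both arrays lay within the SD between targets of a gene.

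The complexins bind the assembled SNARE complex, and the 2 isoforms lay at opposite ends. Cplx1 had 284 in TLC-S and 792 in control and was the lowest of all 51 genes, 2.79-fold lower. Cplx2 had 141 in TLC-S and 53.3 in control, where it was near the random probes, at least 1.41-fold higher. After loess subtraction the log2 ratios were -1.80 for Cplx1 and 1.44 for Cplx2. With an offset of 50, which cannot change a sign, they were -1.33 and 0.88. The other alternatives keep the ratio or shift it by a constant, so they do not check the directions. Each isoform was read by a single target, so no second target checks either value.

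Of the synaptotagmins, only Syt3 reached 100 on both arrays, with 234 in TLC-S and 199 in control (log2 ratio 0.23, and -0.03 after loess). Syt11, a synaptotagmin that does not bind calcium, had 192 in TLC-S and 52.3 in control, at least 1.92-fold higher. Its measured log2 ratio of 1.88 was the highest of the 51 genes. Syt1, the fast calcium sensor of synaptic vesicles, had 42.3 in TLC-S and 43.7 in control. Syt7, a slower calcium sensor of secretory granules and lysosomes, had 39.7 in TLC-S and 35.2 in control, and Syt4 had 37.9 in TLC-S and 48.0 in control. These 3 lay at the level of random probes on both arrays.

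The Rab GTPases were led by Rab3d, the Rab3 isoform of zymogen granules. It had 611 in TLC-S and 254 in control, 2.41-fold higher (0.95 on the log2 scale after loess, just under 2-fold). Rab3a, the neuronal isoform, had 198 in TLC-S and 118 in control, 1.68-fold higher. Rab3b was under 100 on both arrays, with 64.0 in TLC-S and 85.4 in control. Rab27a, which docks secretory granules, had 273 in TLC-S and 199 in control, 1.37-fold higher. Rab27b, the isoform known on zymogen granules, was under 100 on both, with 48.3 in TLC-S and 65.7 in control.

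The Rabs of constitutive and recycling traffic lay on both sides of 0. Rab10, of transport to the plasma membrane, had 1715 in TLC-S and 2509 in control, 1.46-fold lower. Rab11a, of recycling endosomes, had 823 in TLC-S and 895 in control, a log2 ratio of -0.12. Rab8a gave 1029 in TLC-S and 897 in control, and Rab5a, of early endosomes, 832 in TLC-S and 810 in control. Their log2 ratios of 0.20 and 0.04 turned to -0.11 and -0.28 after loess. The median of all 9 Rabs was 0.04, and it changed sign with scaling, to -0.02 after centring on the median target and to -0.28 after loess.

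The exocyst is a complex of 8 subunits that tethers vesicles at the plasma membrane, and 6 of them are among the genes described here. All 6 reached 100 on both arrays, and all 6 log2 ratios lay above 0, as measured and after loess subtraction. Of all named genes at this level, 66.3% were above 0 as measured and 49.9% after loess. Exoc1 (Sec3) had 338 in TLC-S and 140 in control, 2.41-fold higher. Exoc5 (Sec10) had 706 in TLC-S and 316 in control, 2.23-fold higher. Exoc4 (Sec8), at a target of a predicted record, had 1370 in TLC-S and 892 in control, 1.54-fold higher.

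Exoc7 (Exo70), which binds membrane lipids, had 248 in TLC-S and 164 in control, 1.52-fold higher. Exoc3 (Sec6) had 768 in TLC-S and 583 in control, 1.32-fold higher, and Exoc2 (Sec5), which binds the GTPase Ral, had 596 in TLC-S and 461 in control, 1.29-fold higher. The last 2 lay within the SD between targets of a gene. The median log2 ratio of the 6 was 0.61, and 0.33 after loess, when their values ran from 0.05 for Exoc2 to 1.01 for Exoc1.

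**Figure D3:**
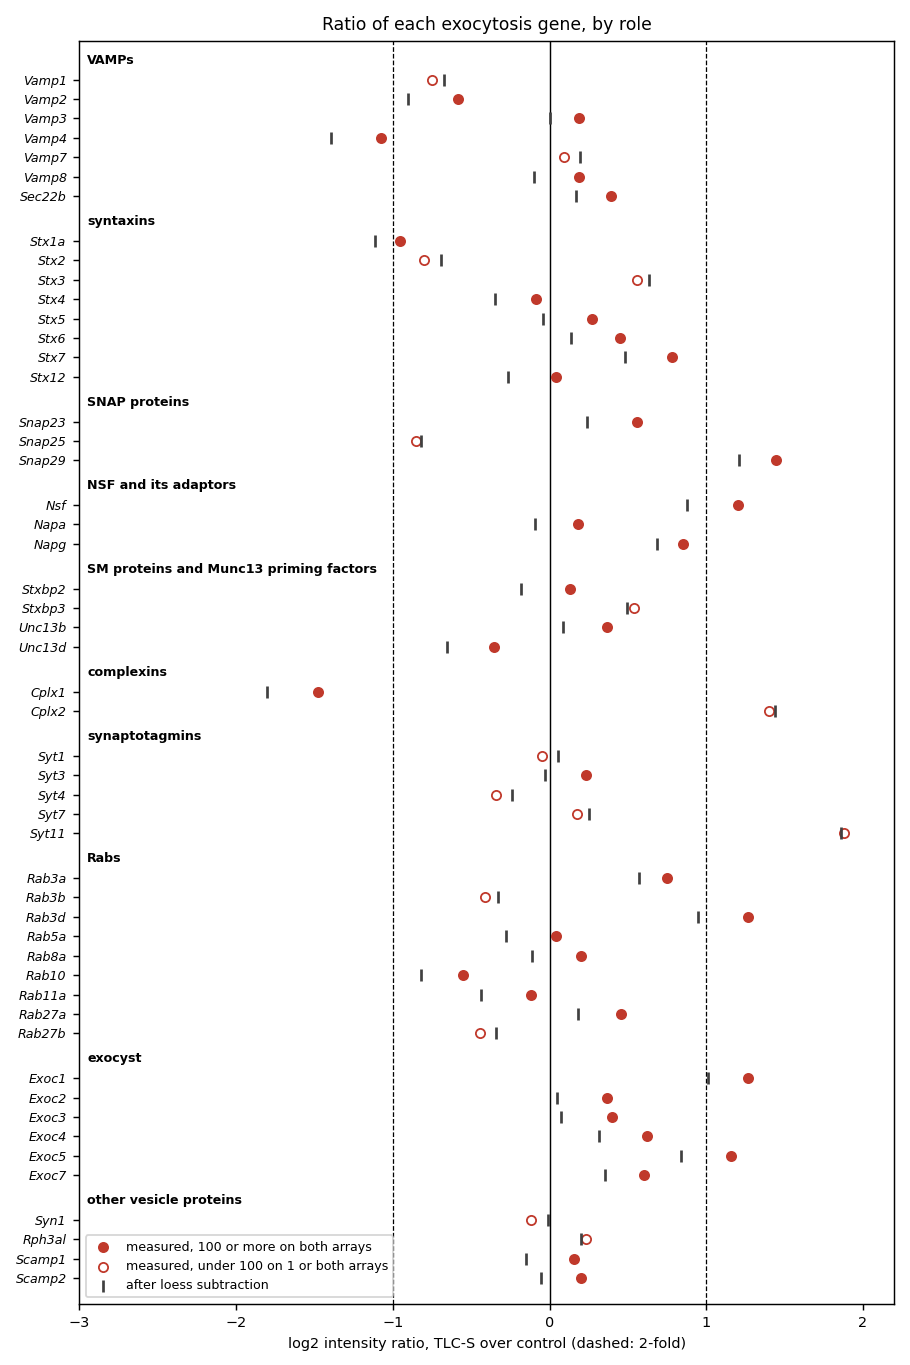
Log2 ratio of TLC-S over control for each of the 51 genes by role, filled where both arrays reached 100 and open where 1 or both did not, with the value after loess subtraction as a black tick. The 6 exocyst genes lie to the right of 0 by both values, Cplx1 and Cplx2 lie on opposite sides, and 11 genes change sign between the circle and the tick.

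To show sequence beside these values, the promoters of 4 genes past 2-fold are printed: both exocyst subunits past 2-fold (Exoc1 and Exoc5), Snap29 as the highest and Cplx1 as the lowest of those that reached 100 on both arrays. Each runs 5′ to 3′ on the gene's strand over 300 bases, 250 before and 50 after the annotated start, from RefSeq on build GRCr8. They lie at chr14:32014078-32014377 (minus strand) for Exoc1, chr15:24834892-24835191 (minus) for Exoc5, chr11:97113146-97113445 (minus) for Snap29 and chr14:1328823-1329122 (plus) for Cplx1. Capitals mark matches, on either strand, to any of 6 motifs: the cyclic AMP response element TGACGTCA, the AP-1 site TGANTCA, the E-boxes CATATG and CACGTG, the GC box GGGCGG and the ETS site CCGGAAG.
Exoc1: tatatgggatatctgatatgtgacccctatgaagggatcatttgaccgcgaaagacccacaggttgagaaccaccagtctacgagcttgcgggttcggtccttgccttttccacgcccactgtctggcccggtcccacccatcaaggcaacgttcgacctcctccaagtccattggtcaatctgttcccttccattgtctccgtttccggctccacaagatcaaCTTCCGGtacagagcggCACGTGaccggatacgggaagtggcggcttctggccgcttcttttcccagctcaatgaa
Exoc5: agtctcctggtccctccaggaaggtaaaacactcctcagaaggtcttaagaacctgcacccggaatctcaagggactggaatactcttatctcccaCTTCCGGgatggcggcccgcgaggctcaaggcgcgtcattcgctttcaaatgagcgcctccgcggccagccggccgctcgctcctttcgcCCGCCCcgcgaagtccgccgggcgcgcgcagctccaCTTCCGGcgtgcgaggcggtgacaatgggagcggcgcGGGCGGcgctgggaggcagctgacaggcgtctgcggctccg
Snap29: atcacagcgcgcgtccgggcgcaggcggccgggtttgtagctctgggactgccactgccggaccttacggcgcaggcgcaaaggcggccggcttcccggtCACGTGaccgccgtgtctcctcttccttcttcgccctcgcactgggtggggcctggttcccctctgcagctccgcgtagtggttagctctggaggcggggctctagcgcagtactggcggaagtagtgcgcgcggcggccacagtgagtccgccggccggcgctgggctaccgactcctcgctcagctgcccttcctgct
Cplx1: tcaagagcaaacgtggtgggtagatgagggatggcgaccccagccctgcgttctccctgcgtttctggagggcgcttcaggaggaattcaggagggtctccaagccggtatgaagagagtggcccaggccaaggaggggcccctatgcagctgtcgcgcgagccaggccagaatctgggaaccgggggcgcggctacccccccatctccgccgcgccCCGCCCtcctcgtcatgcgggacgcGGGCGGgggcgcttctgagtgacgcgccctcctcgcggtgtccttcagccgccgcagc

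Of the 51 genes, 46 matched a promoter in the RefSeq table. The exocyst promoters of Exoc1, Exoc3 and Exoc5 held the ETS site, as did 11 of the 46 in all (23.9%), beside 20.9% of 7042 promoters of genes at 100 or more on both arrays. CACGTG was in the promoters of Exoc1, Snap29 and Nsf and in 8 of the 46 (17.4%), beside 10.2%. Its other holders, Napa, Rab5a, Scamp1, Stx6 and Stxbp2, had log2 ratios from 0.04 to 0.45. The GC box was in 36 (78.3%), Cplx1 and Rab3d among them, beside 63.3%. The cyclic AMP response element was in 3 (6.52%, beside 3.32%), and AP-1 and CATATG were each in 1 (2.17%, beside 4.43% and 1.66%). Over 33469 promoters of all genes in the table the shares were 8.75% for the ETS site, 6.42% for CACGTG, 33.1% for the GC box, 1.83% for the cyclic AMP response element, 7.33% for AP-1 and 4.11% for CATATG. A match is a description of the letters only.

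The remaining vesicle proteins differed little. Scamp2, a membrane protein of recycling carriers, had 2605 in TLC-S and 2263 in control, a log2 ratio of 0.20 that was -0.05 after loess. Scamp1 was the only gene of the 51 read by more than 1 target, and its 2 targets, both of predicted records, differed in sign. The brighter had 991 in TLC-S and 888 in control (log2 ratio 0.16), and the dimmer had 388 in TLC-S and 585 in control (-0.59). Rph3al (Noc2), an effector of Rab3 and Rab27 on secretory granules, had 111 in TLC-S and 94.7 in control, at least 1.11-fold higher. Syn1, which clusters synaptic vesicles, had 44.5 in TLC-S and 48.3 in control.

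Read across classes, some forms best known from neurons were lower, and widely expressed paralogues of theirs were higher or near 0 as measured. This grouping was made after the values were seen. Vamp1, Vamp2, Stx1a, Snap25 and Cplx1 had log2 ratios of -0.75, -0.58, -0.95, -0.85 and -1.48, and all stayed below 0 after loess. Of these, Vamp1 and Snap25 were under 100 on both arrays or on 1. Vamp3, Vamp8, Stx4 and Snap23 had 0.19, 0.19, -0.09 and 0.56, and after loess 0.0015, -0.10, -0.35 and 0.24. Rab3a, also a neuronal form, went against that grouping at 0.75. So did Cplx2, the paralogue of Cplx1, at a measured 1.40 with its control value under 100. Syt1, Syt3 and Syn1 had -0.05, 0.23 and -0.12, with Syt1 and Syn1 at the level of random probes. Further members placed on neither side include Stx2, Stx3, Syt4, Syt11 and Unc13b. Their measured log2 ratios were -0.80, 0.56, -0.34, 1.88 and 0.37, and of these only Unc13b reached 100 on both arrays. The grouping thus covers a part of the members alone.

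Beyond the 51 genes, 108 further genes of the machinery were listed, of which 88 were measured. Their median log2 ratio was 0.18, with 54 above 0 (61.4%), against 0.15 and 59.3% for all named genes. After loess their median was 0.05, with 48 above 0. Of the 47 at 100 or more on both arrays, 4 were at least 2-fold higher (8.51%, beside 10.0% of named genes) and 2 at least 2-fold lower (4.26%, beside 4.38%). Scfd1 (Sly1), the SM protein of transport between endoplasmic reticulum and Golgi, was the highest, with 599 in TLC-S and 188 in control, 3.19-fold higher.

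Rab3ip (Rabin8), an exchange factor that activates Rab8, had 517 in TLC-S and 186 in control, 2.78-fold higher. Exoc6 (Sec15), a further exocyst subunit, had 315 in TLC-S and 129 in control, 2.43-fold higher. Exoc8, the remaining subunit, was under 100 on both arrays, with 83.9 in TLC-S and 66.4 in control, and Exoc6b, a paralogue of Exoc6, had 110 in TLC-S and 133 in control, 1.20-fold lower. Leaving the paralogue aside, 7 exocyst subunits reached 100 on both arrays, and all 7 had a higher value in TLC-S, before loess (beside 66.3% of named genes at this level) and after it (beside 49.9%). Exoc6b also reached 100 on both arrays, and its log2 ratio was -0.27, and -0.36 after loess. With it counted, the exocyst genes at this level did not all go the same way.

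At the low end, Stxbp4 (Synip), which binds Stx4, had 219 in TLC-S and 607 in control, 2.77-fold lower, at a target of a predicted record. Syt13, a synaptotagmin that does not bind calcium, had 142 in TLC-S and 362 in control, 2.56-fold lower. Rab26, a Rab of secretory granules in exocrine cells, had 48.8 in TLC-S and 271 in control, at least 2.71-fold lower. Rab26 and Rab3d are both known as targets of the transcription factor Mist1 (Bhlha15) in mouse and human gastric cells. Here they lay on opposite sides, with Rab26 under 100 in TLC-S. Bhlha15 itself had 1056 in TLC-S and 1227 in control. Any part of it in these values was not tested.

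The named genes of the other classes were closer to 0. Among SNAREs, Bnip1 had 402 in TLC-S and 202 in control, 1.99-fold higher, and Gosr2 had 2201 in TLC-S and 1265 in control, 1.74-fold higher. Syt8 had 65.3 in TLC-S and 108 in control, at least 1.08-fold lower. Of the 8 priming and active zone genes, 0 reached 100 on both arrays. Unc13a had 88.8 in TLC-S and 118 in control, at least 1.18-fold lower, and Rims4 had 106 in TLC-S and 93.9 in control, at least 1.06-fold higher. Sypl1 had 964 in TLC-S and 636 in control, 1.52-fold higher, and Syn3 had 108 in TLC-S and 75.9 in control, at least 1.08-fold higher.

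**Figure D4:**
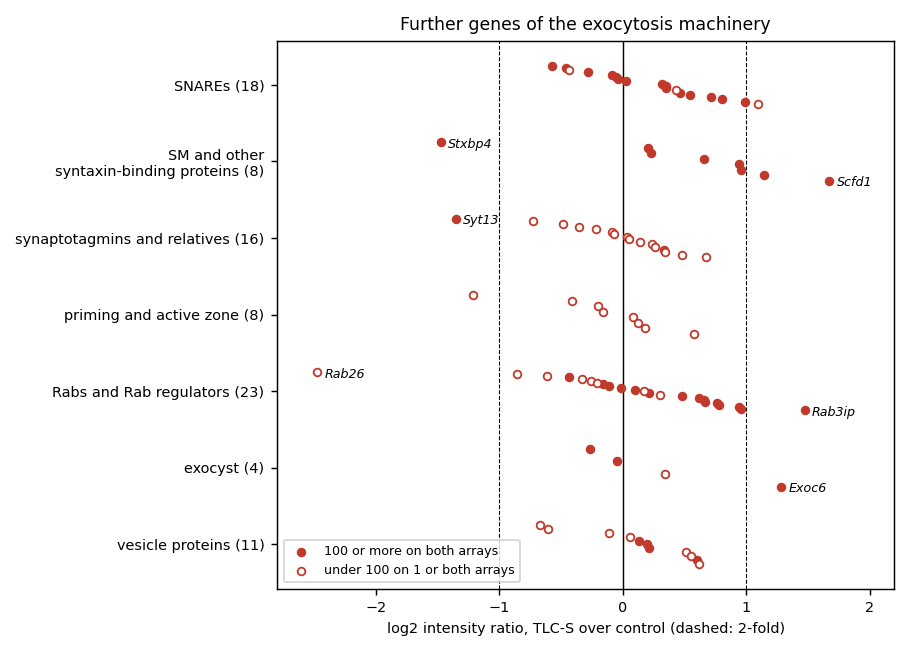
Log2 ratio of TLC-S over control for the 88 further genes of the exocytosis machinery, with the number measured per class in brackets, filled where both arrays reached 100. Dashed lines mark 2-fold, and the 6 labelled genes are those farthest from 0 that reached 100 on at least 1 array, among them Scfd1 at 1.67 and Rab26 at -2.48.

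The authors' deposited tables of higher and lower genes hold the same 5 higher and 2 lower members, with folds equal to those above to rounding. In the GO process terms of the authors' deposited table, vesicle docking had 4 listed genes of 20 (Exoc6, Scfd1 and Exoc5 among them) at a p-value of 0.0167 and a false discovery rate of 0.153. In the same authors' deposited table, vesicle fusion had 3 of 15 (Gnai3, Eea1 and Nsf), with a p-value of 0.0376 and a rate of 0.27. Neither passes the usual limit on the false discovery rate. Of the 468 terms in that table, 0 had exocytosis or secretion in their name.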

How the data were processed

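Total RNA was labelled with Cy3 and hybridised to 1-colour NimbleGen arrays, per the labels' protocols. The authors deposited 1 intensity per target and array, on a linear scale; RMA is named in the submitters' processing notes, while its background step and the scanner are not given in the sources used here. Per the file headers, the authors' deposited tables of differences give a fold (ratio), and the deposited GO table gives a p-value per term.

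Of 26419 targets, nearly all of 5 probes, 9747 were named by RefSeq accession, 4950 by gene ID (both through a gene table of GRCr8, for names alone), 1644 by the file's symbol, and 10078 were unnamed. Log2 ratios are TLC-S over control. The limit of 100 on both arrays selects the 11292 targets that the authors list. Precision is limited by the number of arrays, 1 per group; no test was run, and lists are described by counts and medians. The member genes, the further list and the limits were chosen with earlier results of these data known. Every member is accounted for; further genes are named if past 2-fold with 100 on at least 1 array, or among the 2 largest absolute ratios of their class at that level. A gene that meets this rule is not reported here. Exoc8 was named beside the other exocyst genes, outside this rule. Alternatives were loess (span 0.3, 3 iterations), median centring, signal limits, the authors' table, the series values, an offset of 50, other targets of a gene, and 1.5-fold and 3-fold thresholds. The steps were tested on simulated ratios with less spread than these arrays and no trend with signal. The genes moved there had at least the median signal and a shift well past 2-fold. That test does not cover calls near 2-fold, dim genes or the trend with signal. Scripts used matplotlib 3.10.9, statsmodels 0.14.6, numpy 2.4.6, scipy 1.17.1 and pandas 2.3.3 under Python 3.11.15.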

Additional observations from a re-analysis of the deposited data

How the results depend on the processing

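No paired analysis was possible because the groups hold a single array each, and no replicate could be left out. Of the values of single genes under the alternatives, 450 moved by less than the SD between targets of a gene and 3 by more. With an offset of 50, Cplx2 gave 0.88 and Syt11 1.24 on the log2 scale, and the dimmer target of Scamp1 gave -0.59. Most of the 450 could not move, so their number does not measure stability. The series values, the authors' table and the signal limits keep the same ratio, as do other targets for every gene but Scamp1. Median centring subtracts a constant of 0.06. Only loess and the offset could change the ratios of the other genes by more. Loess with the limit of 100 on both arrays was chosen after seeing the data. Against 7 genes at least 2-fold higher, loess gave 4, loess with that limit 2, the 1.5-fold threshold 12 and the 3-fold threshold 1. Against 2 at least 2-fold lower, an offset of 50 gave 1, and the 1.5-fold and 3-fold thresholds gave 6 and 0. Over the 51 genes the median of 0.20 was 0.0015 after loess and -0.0125 after loess with the limit. After loess and after loess with the limit, in that order, the medians were -0.10 and -0.10 for VAMPs, -0.15 and -0.15 for syntaxins, -0.0479 and -0.18 for SM proteins and Munc13 factors, -0.28 and -0.11 for Rabs, -0.0316 and -0.10 for other vesicle proteins, and 0.33 and 0.33 for the exocyst. With the limit and loess, those of complexins and synaptotagmins, each then resting on 1 gene, were -1.80 and -0.0264. Median centring turned that of Rabs to -0.0230. Loess centres ratios at each signal by construction; the cause of the array-wide shift was not tested. Over the further genes the median was 0.33 both in the authors' table and with the limit of 100, which hold fewer genes by construction. Values near 100 rest on few units above the random probes and carry the least weight.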
